A study of Mus musculus with 18 samples.

Results

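Transcript levels of pituitary lineage transcription factors were examined in pituitary, hypothalamus and ovary of control and transported female mice. The 7 factors named for this purpose were Pou1f1, Pitx1, Lhx3, Tbx19, Pax7, Gata2 and Hesx1. A factor was measured through the transcript cluster (the probe set of the array) that the platform annotation assigned to its symbol alone, and the cluster with the highest mean over the 18 arrays would have been taken had there been several. By this rule 6 of the 7 factors were measured, each by 1 cluster, among 22180 genes in all. No cluster was assigned to Pou1f1 alone, and it is not analysed here.

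The anterior pituitary arises from an oral ectoderm pouch in which Hesx1, a paired-like homeodomain repressor, is an early factor, and Pitx1 and Lhx3 are homeodomain activators that act in the pouch and in most hormone cell types. Lineages then part. Tbx19 (also called Tpit) is the T-box activator of Pomc in corticotropes and melanotropes, Pax7 is a paired-domain pioneer factor that directs melanotrope identity, and Gata2 is a zinc finger factor of gonadotropes and thyrotropes. Pou1f1 is the POU-domain factor of somatotropes, lactotropes and thyrotropes.

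Each tissue was hybridised to 6 Affymetrix Mouse Gene 2.0 ST arrays, 3 from control and 3 from stressed animals. The mice were female BABL/c (spelled as labelled), wild type as far as the labels state, from 10 littermate pairs aged 6 weeks at the start, and each pair was split at random between control and stress. All animals of both groups were superovulated at 9 weeks. Stress was road transport over 1000 km for nearly 10 h at a mean of 50 km/h, and controls were housed in the same laboratory without transport. In each treatment the array called high came from the 1 mouse with most ovulated oocytes, low from the 1 mouse with fewest, and pool from tissue of 8 other mice mixed together, so a group of 3 arrays mixes 2 single mice with 1 pool. The p values therefore measure the spread between such unlike samples, and the high, low and pool arrays of the 3 tissues come from the same mice. All values below are log2 signals as deposited, on which 1 unit is a 2-fold difference, and levels of different genes, read by different probes, are not compared.

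Tissue identity and arrays that stand apart were checked first. Of 10 genes for hormones and receptors of anterior pituitary cells, 9 were higher in every pituitary array than in every array of the other tissues (Crhr1 was the exception). The same held in hypothalamus for 11 of 11 hypothalamic neuron genes and in ovary for 7 of 8 ovary genes (not Amh). Some arrays, pools and single mice, carried genes of another tissue. The mean of the 8 ovary genes was 6.86 in the stressed pituitary pool against 4.63 to 4.92 in the other 5 pituitary arrays, and 6.20 in the stressed hypothalamus pool against 4.65 to 5.03 in the other hypothalamus arrays. Single hypothalami differed too in the pituitary hormone genes Prl and Gh. Prl was 9.26 in the control low mouse and 8.68 in the stressed high mouse against 5.53 to 7.69 in the other 4 hypothalamus arrays. Gh was 8.14 and 7.81 against 5.67 to 7.37 in the same arrays. The ovary gene Cyp11a1 was 6.99 in the hypothalamus of the control low mouse against 4.10 to 5.77 in the others, except for 10.52 in the stressed pool. The mean of the 10 pituitary hormone and receptor genes was 6.09 and 6.46 in the control and stressed ovary pools against 4.46 to 4.70 in the single ovaries. That of the 11 hypothalamic neuron genes was 5.80 and 6.01 in the control and stressed pituitary pools against 5.43 to 5.57 in the single pituitaries. Among them Calb2 was 5.19 and 8.46 against 3.39 to 3.74, and Pmch was 6.67 in the control pool and 3.60 in the stressed pool against 3.80 to 4.30. In the pools 6 of these genes were higher and 5 lower, such as Avp (8.33 and 8.72 against 9.74 to 11.00). Pool arrays also had a wider spread of log2 signals over clusters than single-mouse arrays, 2.31 to 2.36 against 2.15 to 2.28 as SD.

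Promoter sequence helps to place the factors, because several of them are known to act on one another's genes or on their own. RefSeq start sites (GRCm38.p6) were found for 5 of the 6 measured factors. The 250 bases before the start are printed for Tbx19, which showed the largest pituitary difference of the 6, for Lhx3, which came next, and for Gata2, which behaved differently from the rest. Capitals mark the letters searched on both strands: TAATCC for a Pitx site, TAATTA for the core bound by LIM and paired homeodomains, AGATAA for a GATA site, GGTGTGA for a T-box site and TATAAA for a TATA box.
Tbx19, chr1:165160774-165161023, minus strand: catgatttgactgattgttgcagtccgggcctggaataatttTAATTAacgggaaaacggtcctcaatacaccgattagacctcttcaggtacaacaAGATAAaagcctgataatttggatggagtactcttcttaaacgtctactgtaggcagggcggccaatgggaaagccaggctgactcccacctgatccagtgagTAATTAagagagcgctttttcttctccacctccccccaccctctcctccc
Lhx3, outermost start, chr2:26208250-26208499, minus strand: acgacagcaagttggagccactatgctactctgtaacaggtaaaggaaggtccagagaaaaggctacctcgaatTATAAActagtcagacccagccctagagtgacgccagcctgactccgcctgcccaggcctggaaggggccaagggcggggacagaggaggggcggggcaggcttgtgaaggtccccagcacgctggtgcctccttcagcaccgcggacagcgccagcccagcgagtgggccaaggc
Gata2, outermost start, chr6:88193641-88193890, plus strand: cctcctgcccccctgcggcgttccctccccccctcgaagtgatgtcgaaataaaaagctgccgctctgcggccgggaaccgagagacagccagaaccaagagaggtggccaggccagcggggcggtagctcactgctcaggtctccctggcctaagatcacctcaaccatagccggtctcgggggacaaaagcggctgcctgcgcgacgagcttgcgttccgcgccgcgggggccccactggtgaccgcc

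The Tbx19 window held TAATTA at 208 and again at 50 bases before the start, and AGATAA at 153 bases. TAATTA occurred in 4.84% and AGATAA in 9.99% of 32851 promoter windows of the same length. The Lhx3 window held TATAAA at 176 bases before the start, a match found in 12.4% of windows. The Gata2 window held none of the 5 motifs. Neither did the windows of Pax7 and Hesx1, which unlike the 3 printed are not at the outermost annotated start of their gene. TAATCC was present in 6.25% and GGTGTGA in 3.33% of all windows, and neither occurred in the windows of the 5 factors. By composition the Gata2 window was 67.2% G and C with 22 CpG dinucleotides, the Lhx3 window 62.0% with 11 and the Tbx19 window 47.6% with 7, against medians of 52.4% and 6 over all windows. The Hesx1 window was the poorest of the 5 in G and C, at 34.0%. Such matches describe letters in these windows and not binding.

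All 6 measured factors were higher in pituitary than in hypothalamus and than in ovary. By their own probes, Tbx19 and Lhx3 were 9.08 to 16 times higher, Pitx1 and Pax7 3.31 to 4.63 times, Gata2 1.93 to 3.63 times and Hesx1 1.48 times. The files carry no call of detection above background, and outside pituitary the signals of Hesx1, Lhx3 and, in ovary, Tbx19 were near or below the array medians of 4.75 to 4.87, so that a fold may understate the difference and the order of the factors by fold is only a description. Differences between tissues were tested with limma on all 18 arrays, with the mouse or pool as a block and Benjamini-Hochberg adjustment over 22180 genes at a threshold of 0.05. In that test 21.5% of all genes were higher in pituitary than in hypothalamus, 20.3% were higher than in ovary and 8.38% were higher than in both, against 6 of 6 factors in each case. The shares of genes lower in pituitary were 20.8% and 23.2%. Centring each array on its median lowered the median difference of all genes from 0.04 to -0.10 against hypothalamus and from 0.01 to -0.10 against ovary. It also changed the split of called genes from 4775 higher of 9388 to 3458 of 9484 against hypothalamus, and from 4495 higher of 9646 to 3592 of 9898 against ovary. All 6 factors passed in both comparisons under that centring too. Since whole tissue was measured, more cells of a lineage and more RNA per cell cannot be told apart.

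Hesx1, the early repressor, had the smallest tissue difference. In pituitary its signal was 4.11, 4.04 and 3.93 in the high, low and pool control arrays and 3.87, 3.93 and 4.09 in the stressed ones. In hypothalamus it was 3.75, 3.37 and 3.12 in control and 3.64, 3.45 and 3.27 in stress, and in ovary 3.81, 3.09 and 3.34 in control and 3.55, 3.27 and 3.53 in stress. The 6 pituitary arrays lay close together and just above every array of the other tissues, the nearest being the ovary of the control high mouse. Pituitary exceeded hypothalamus by 0.56 ± 0.12 (SE, limma adjusted p = 0.000646) and ovary by 0.57 ± 0.12 (adjusted p = 0.000576). Hypothalamus and ovary differed by 0.00 (95% confidence interval -0.24 to 0.25). The Hesx1 signals in pituitary also lay below the medians of the pituitary arrays (4.86 to 5.03), so it is not known in any of the 3 tissues whether they are above that of an unexpressed gene.

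Pitx1, the homeodomain activator of the pouch and of several hormone genes, had pituitary signals of 6.92, 7.44 and 8.02 in the high, low and pool control arrays and 6.74, 7.19 and 7.27 in the stressed ones. In hypothalamus it read 5.23, 4.47 and 5.07 in control and 5.26, 5.13 and 5.29 in stress, and in ovary 5.30, 5.39 and 5.48 in control and 4.74, 5.12 and 5.56 in stress. Every pituitary array was above every other array, by more than 1 unit, and hypothalamus and ovary overlapped. Pituitary was higher than hypothalamus by 2.19 ± 0.18 (SE, 4.55-fold, limma adjusted p = 2.2e-08) and higher than ovary by 2.00 ± 0.18 (4-fold, adjusted p = 5.63e-08). The difference of hypothalamus from ovary, -0.19 (95% confidence interval -0.57 to 0.19), did not pass.

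Lhx3 encodes the LIM homeodomain factor needed for growth of the pouch. Its pituitary signals were 7.29, 7.26 and 7.99 in the high, low and pool control arrays and 7.06, 7.37 and 7.44 in the stressed arrays. In hypothalamus the signals were 4.10, 4.68 and 4.15 in control and 4.82, 3.41 and 4.17 in stress, and in ovary 4.32, 4.35 and 4.12 in control and 4.17, 4.01 and 4.36 in stress. A gap of over 2 units separated the lowest pituitary array from the highest of the others. Pituitary exceeded hypothalamus by 3.18 ± 0.19 (SE, limma adjusted p = 3.12e-10) and ovary by 3.18 ± 0.19 (adjusted p = 2.42e-10), 9.08-fold in each case. The means of the other tissues were the same to 2 decimals, 4.22 ± 0.50 in hypothalamus and 4.22 ± 0.14 in ovary (SD, n = 6), and differed by -0.00 (95% confidence interval -0.39 to 0.39).

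Tbx19, the corticotrope and melanotrope activator, showed the largest pituitary difference. Its signals there were 8.59, 8.65 and 9.46 in the high, low and pool control arrays and 8.15, 8.07 and 9.71 in the stressed arrays. In hypothalamus they were 5.04, 5.16 and 5.80 in control and 4.90, 4.71 and 5.28 in stress, and in ovary 4.62, 4.77 and 4.98 in control and 5.44, 4.14 and 4.67 in stress. Both pituitary pools stood above the 4 single mice, and all 6 pituitary arrays above all others. Pituitary was 12.3-fold above hypothalamus (3.62 ± 0.20, SE, limma adjusted p = 1.95e-10) and 16-fold above ovary (4.0 ± 0.20, adjusted p = 4.5e-11). Hypothalamus and ovary differed by 0.38 (95% confidence interval -0.05 to 0.80, adjusted p = 0.141). This last difference passed without the ovary of the stressed high mouse (0.60, adjusted p = 0.00561) and under none of the other omissions of 1 array (adjusted p up to 0.358).

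Pax7 marks melanotropes in the pituitary and, outside it, satellite cells of muscle. It read 7.55, 7.76 and 8.46 in the high, low and pool control pituitaries and 7.08, 7.65 and 7.87 in the stressed ones. In hypothalamus it read 5.84, 5.99 and 6.32 in control and 6.35, 5.33 and 6.18 in stress, and in ovary 5.56, 5.66 and 5.31 in control and 5.47, 5.55 and 5.55 in stress. Pituitary arrays were again above all others, and hypothalamus overlapped ovary through the stressed low mouse only, whose hypothalamus was the lowest of its tissue. Pituitary exceeded hypothalamus by 1.73 ± 0.18 (SE, limma adjusted p = 4.93e-07) and ovary by 2.21 ± 0.18 (adjusted p = 1.96e-08). Hypothalamus was higher than ovary by 0.49 (95% confidence interval 0.10 to 0.87, adjusted p = 0.0358). That call was lost after quantile normalization (adjusted p = 0.0725), with no block for the mouse (0.0602) and in 7 of 12 omissions of 1 array (up to 0.133, without the control ovary pool). The mean of 4 genes of skeletal muscle and satellite cells was 4.97 to 5.56 in pituitary arrays, within the range of 5.02 to 5.85 in the other tissues except at its low end, and of these genes none was higher in pituitary than in either tissue by the test. The part of such cells in the Pax7 levels was not tested.

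Gata2, the zinc finger factor of gonadotropes and thyrotropes, had the least exclusive pattern. Its pituitary signals were 6.70, 6.88 and 8.23 in the high, low and pool control arrays and 6.55, 7.02 and 7.99 in the stressed arrays. In hypothalamus they were 4.45, 5.16 and 6.31 in control and 5.18, 5.16 and 5.96 in stress, and in ovary 5.68, 6.27 and 7.22 in control and 5.85, 5.70 and 6.96 in stress. Within each tissue and treatment the pool was the highest array, and the ovary pools overlapped the pituitaries of single mice. Pituitary exceeded hypothalamus by 1.86 ± 0.12 (SE, 3.63-fold, limma adjusted p = 1.55e-09) and ovary by 0.95 ± 0.12 (1.93-fold, adjusted p = 5.3e-06), and hypothalamus was below ovary by -0.91 ± 0.12 (adjusted p = 5.9e-06). Without the block for the mouse or pool, the differences of pituitary and of hypothalamus from ovary had adjusted p = 0.0603 and 0.0622. Gata2 is also made by endothelial cells. The mean of 4 endothelial genes was 7.13 to 7.79 in pituitary, 6.35 to 6.98 in hypothalamus and 8.68 to 9.06 in ovary; the order of the tissues was thus not that of Gata2, and the part of these cells in its levels was not tested.

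The order of tissues was therefore pituitary highest for all 6 factors. Below it, hypothalamus and ovary could not be separated for Hesx1, Pitx1, Lhx3 and Tbx19, while Pax7 was higher in hypothalamus and Gata2 higher in ovary, 1 factor in each direction, against 22.3% and 27.0% of all genes. For 5 of the 6 factors, all but Gata2, the 6 pituitary arrays lay above all 12 other arrays, a pattern that 3.11% of genes showed. Against hypothalamus alone 6 of 6 factors did so (9.00% of genes), and against ovary alone 5 of 6 (10.2%).

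**Figure D1:**
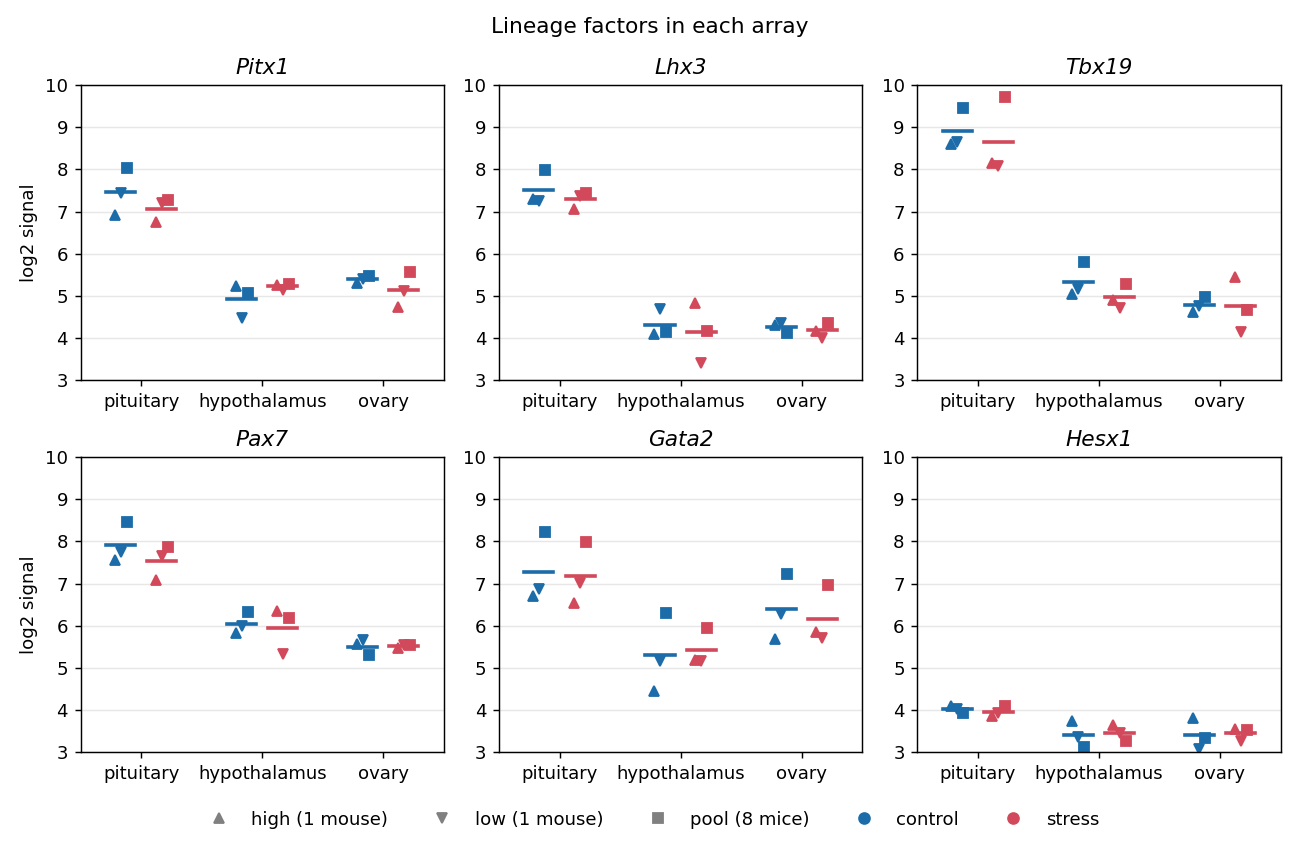
Log2 signal of each measured factor in every array, by tissue, with colour for treatment, marker shape for the high mouse, low mouse or pool, and a bar at the mean of 3 arrays. Pituitary arrays lie above all others except for Gata2, whose ovary pools (7.22 and 6.96) reach the single pituitaries.

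None of the close relatives measured was called higher in pituitary than in both other tissues. Of 16 close relatives of the factors 14 were measured. By the same test 0 were higher in pituitary than in hypothalamus and 2 were lower (21.5% and 20.8% of all genes), and 2 were higher and 4 lower than in ovary (20.3% and 23.2%). These shares are below or near those of all genes, with median differences of 0.08 and -0.09 against 0.04 and 0.01 for all genes and 2.02 and 2.10 for the 6 factors. Gata6 and Gata4, GATA factors of ovarian somatic cells, were lower in pituitary than in ovary by -4.01 ± 0.15 and -2.78 ± 0.14 (SE, limma adjusted p = 1.33e-12 and 3.03e-11). The T-box factors Tbx3 (-2.24) and Tbx2 (-1.09) were also lower than in ovary. Pou3f2 and Pou3f4, POU factors of hypothalamic neurons, were lower in pituitary than in hypothalamus by -1.45 and -1.23. Pitx3, Lhx4 and Pax3, the nearest relatives of Pitx1, Lhx3 and Pax7 on the list, differed by 0.09, 0.08 and -0.29 from hypothalamus and by -0.06, 0.23 and -0.15 from ovary, none of which passed.

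Other transcription factors of the pituitary were split between the tissues. Of 25 listed, 19 were measured; 8 were higher and 3 lower in pituitary than in hypothalamus (21.5% and 20.8% of all genes), and 7 higher and 6 lower than in ovary (20.3% and 23.2%). Neurod4, a basic helix-loop-helix factor of the pituitary, had the largest differences, 5.37 ± 0.15 and 5.45 ± 0.15 (SE, limma adjusted p = 7.86e-14 and 2.16e-14). Six6, a homeodomain factor of pituitary and retina, followed with 3.17 and 4.02, and Six3 and Insm1 were higher in both comparisons by 0.58 to 1.50. Some factors were shared with only 1 of the other tissues. Nr5a1 and Foxl2, which act in gonadotropes and in ovarian cells, were above hypothalamus by 0.94 and 0.84 and below ovary by -1.99 and -1.98. Sox2, of stem cells and neural tissue, was 1.10 below hypothalamus (difference -1.10) and 3.44 above ovary, and Isl1 was at the level of hypothalamus (0.02, adjusted p = 0.917) and 2.27 above ovary.

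**Figure D2:**
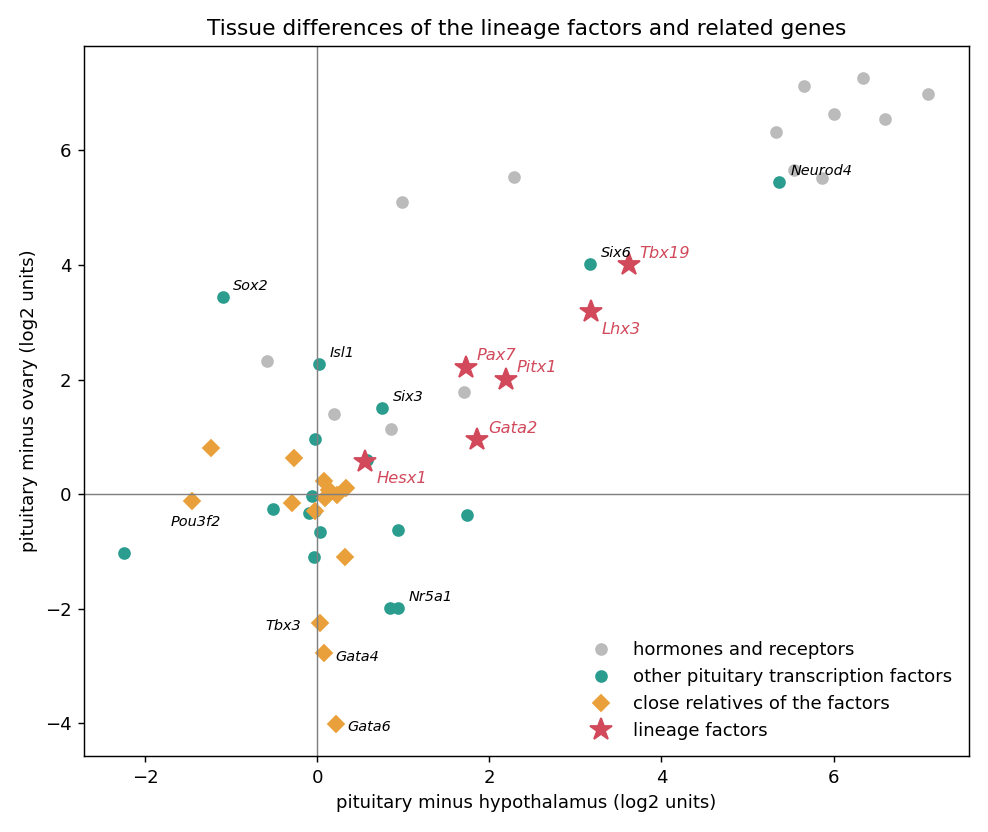
Difference of pituitary from hypothalamus (x axis) and from ovary (y axis), in log2 units, for the 6 factors, their relatives, other pituitary transcription factors and lineage hormone and receptor genes. The 6 factors are above 0 on both axes, Hesx1 nearest the origin (0.56 and 0.57) and Tbx19 farthest from it (3.62 and 4.0); the relatives Gata6 and Gata4 lie far below the horizontal line.

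The hormones and receptors made by the lineages, which include known targets of the factors, were higher in pituitary almost throughout: 12 of 14 measured genes against hypothalamus and 14 of 14 against ovary, with 0 lower. Pomc, the target of Tbx19, was 6.34 and 7.26 higher. Gh and Prl, the hormone genes of the Pou1f1 lineage, were 6.60 and 6.00 above hypothalamus, and Tshb, the thyrotrope subunit, was 5.33 above it. Fshb and Cga, of gonadotropes, were 7.10 and 5.66 above hypothalamus, whereas Lhb was 0.86 above it. The exceptions against hypothalamus were Crhr1 (0.19, limma adjusted p = 0.397) and Trhr (-0.58, adjusted p = 0.1). Of 15 measured cofactors of the factors, 2 were higher and 3 lower than in hypothalamus, near or below the shares of all genes (21.5% and 20.8%), and 2 higher and 9 lower than in ovary (20.3% and 23.2%). Ldb1, the partner of LIM homeodomain proteins, differed by 0.15 and 0.38, and Zfpm1, a partner of GATA factors, by -0.74 and -1.08.

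Genes whose levels ran most like each factor over the 18 arrays were found by Pearson correlation. The arrays fall into 3 tissues, so these values mostly restate the tissue differences and are descriptions only. Closest to Pitx1 were Plvap (0.979), Ap1m2 (0.975) and Slc17a9 (0.973), and closest to Lhx3 were Ildr1 (0.987), Cldn9 (0.980) and Rab25 (0.979). Ildr1 (0.981) was also closest to Tbx19, followed by Pdzk1ip1 (0.980) and Inmt (0.978). For Pax7 the genes were Ripk4 (0.966), Inmt (0.965) and Spint2 (0.964). Closest to Gata2 were Xbp1 (0.952), Sun1 (0.952) and Copa (0.948). These 3 genes had mean signals above 7 in all 3 tissues, as did Spint2 and Spcs1 among the genes of the other factors. Hesx1 had the lowest top values, with Coa4 (0.913), Spcs1 (0.898) and Arhgef38 (0.879).

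Whether transport stress altered the factors was asked first in pituitary. The means of all 6 were lower in stress than in control, by 0.06 to 0.39 units, and none of the differences passed the test. In this comparison, limma on the 6 pituitary arrays, 0 of 22180 genes were called (0%) and 294 had an unadjusted p under 0.05 (1.33%), none of them a factor. The median difference of the 6 factors was -0.24, beside -0.04 over all genes, of which 12499 were lower and 9681 higher. The adjusted p of each factor was 0.99989.

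The groups overlapped for every factor, as the signals given above show, whereas 3.68% of genes had all 3 stress arrays below, and 2.40% above, all 3 control arrays. Pitx1 was 7.46 ± 0.55 in control and 7.07 ± 0.29 in stress (SD, n = 3), a difference of -0.39 (95% confidence interval -1.11 to 0.32). Pax7 was 7.92 ± 0.48 and 7.53 ± 0.41, also a difference of -0.39 (-1.11 to 0.33). These were the widest gaps. Tbx19 differed by -0.26 (-1.30 to 0.79), Lhx3 by -0.22 (-0.83 to 0.38), Gata2 by -0.08 (-1.18 to 1.01) and Hesx1 by -0.06 (-0.52 to 0.40). Except for Lhx3 and Hesx1 the interval reached a 2-fold decrease, and for Gata2 also a 2-fold increase. This fit has no term for the high, low and pool classes, so differences between the classes widen these intervals. Changes of that size are thus not excluded by this fit, and intervals with the class as a block are not given here. The control pool was the highest of the 6 arrays for Pitx1, Lhx3, Pax7 and Gata2, as for 23.6% of genes.

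Taken by ovulation class, stress minus control was negative in each of the 3 classes for 2 of the 6 factors, Pitx1 and Pax7, a pattern shown by 17.7% of all genes. Pitx1 differed by -0.18 in the high class, -0.26 in the low class and -0.75 in the pools, and Pax7 by -0.47, -0.11 and -0.58. Tbx19 was lower in the stressed single mice (-0.43 in high, -0.58 in low) and higher in the stressed pool (0.24). Lhx3 went the other way in the low mice, with -0.24 in high, 0.11 in low and -0.54 in the pool. Gata2 differed by -0.15, 0.14 and -0.24, and Hesx1 by -0.24, -0.10 and 0.17. A class holds 1 control and 1 stressed array, so these values have no replicate of their own.

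**Figure D3:**
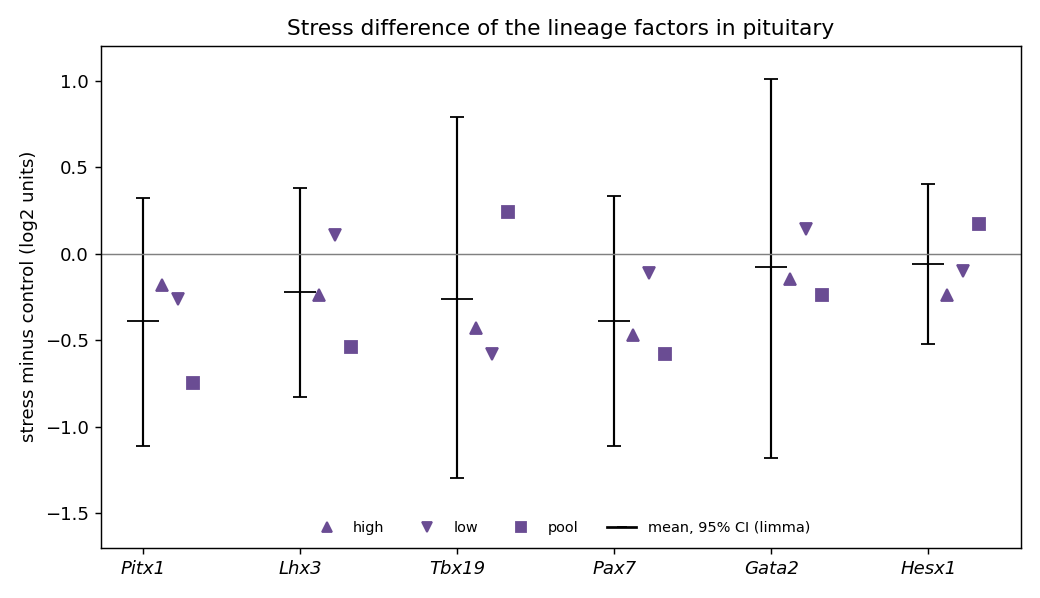
Stress minus control in pituitary, in log2 units, for each factor: the limma mean with its 95% confidence interval (black) and the difference within each ovulation class (purple). All 6 means lie below 0 and all 6 intervals include 0, and Pitx1 and Pax7 are the factors with all 3 classes below 0.

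The stressed pituitary pool is the array with ovary genes, whose median stress difference was 1.11 in the pool class and 0.12 and 0.01 in the high and low classes. The mean of the 10 pituitary hormone and receptor genes was 10.46 in that array and 10.41 in the control pool. Without both pools the stress differences were -0.22 for Pitx1, -0.29 for Pax7, -0.51 for Tbx19, -0.06 for Lhx3, -0.01 for Gata2 and -0.17 for Hesx1, with limma adjusted p from 0.69 to 0.99583. Leaving out single arrays turned the sign for Lhx3 (-0.35 to 0.01), Tbx19 (-0.79 to 0.03) and Gata2 (-0.49 to 0.39). The positive values came without the control pool for Lhx3 (0.01), Tbx19 (0.02) and Gata2 (0.39), without the stressed high mouse for Gata2 (0.23) and without the stressed low mouse for Tbx19 (0.03).

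Among the other pituitary transcription factors 11 were higher and 8 lower in stress, with 0 called and 1 at an unadjusted p under 0.05. That gene was Nr4a1, an immediate early nuclear receptor that acts on Pomc, with a difference of 0.73 (unadjusted p = 0.0258, limma adjusted p = 0.99989). Its values were higher in all 3 classes (1.30, 0.37 and 0.53), as for 10.1% of all genes. In the other direction Hes1 had the smallest unadjusted p (0.109, difference -0.47) and was lower in each class (-0.45, -0.57 and -0.39). Six6 was lower by -0.67 (unadjusted p = 0.154) and in each class (-0.84, -0.72 and -0.45). Of all genes 17.7% were lower in all 3 classes. Of the 14 hormone and receptor genes 3 were higher and 11 lower, with a median of -0.03; Pomc had the smallest unadjusted p (0.403, difference -0.18) and Gnrhr the largest positive difference (0.11). Of the relatives 9 of 14, and of the cofactors 10 of 15, were higher, none called.

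The same comparison in the other tissues gave no call either, with 245 genes at an unadjusted p under 0.05 in hypothalamus (1.10%) and 592 in ovary (2.67%), none of them a factor, and 0 called by limma in both (0%). In hypothalamus the differences ran from -0.37 for Tbx19 (95% confidence interval -0.95 to 0.21) to 0.30 for Pitx1 (-0.22 to 0.83). Tbx19 was lower in all 3 classes there (14.3% of genes) and Pitx1 higher in all 3 (9.23%). In ovary the differences ran from -0.25 for Pitx1 (-0.77 to 0.26) to 0.04 for Hesx1 (-0.47 to 0.54), and no factor kept 1 sign over the classes. The classes differed most for Lhx3 in hypothalamus, where stress minus control was 0.73 in the high class, -1.27 in the low class and 0.02 in the pools. The pituitary hormone genes Prl and Gh moved the same way in these single mice: Prl differed by 3.14, -2.71 and -0.89 and Gh by 2.14, -1.99 and -0.65. The rest of that list moved less or otherwise. Pomc (-0.08, -1.26 and -0.08), Tshb (-0.06, -0.33 and -0.08) and Fshb (-0.02, -0.27 and -0.16) were lower in all 3 classes. Cga differed by 0.15, -0.35 and 0.23, Lhb by 0.10, -0.01 and -0.15 and Ghrhr by 0.32, -0.13 and -0.25. Gnrhr differed by 0.18, -0.03 and -0.35 and Crhr1 by 0.22, -0.15 and -0.08. The part of pituitary RNA in the Lhx3 values was not tested.

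The stress difference of the pituitary was then compared with that of the other tissues as an interaction over 18 arrays. No gene passed (0%), with 837 at an unadjusted p under 0.05 against hypothalamus (3.77%) and 846 against ovary (3.81%), none of them a factor. The widest gap among the factors was that of Pitx1 between pituitary and hypothalamus, -0.70 (95% confidence interval -1.41 to 0.02, unadjusted p = 0.0544, limma adjusted p = 0.99975). Pax7 followed with -0.40 against ovary (-1.20 to 0.41).

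The high and low mice differed in the number of oocytes they ovulated, and their pituitaries were compared in a limma model with class and treatment. No gene was called (0%) and 1160 had an unadjusted p under 0.05 (5.23%), none of them a factor. High minus low was -0.49 for Pitx1 (95% confidence interval -1.04 to 0.07, unadjusted p = 0.0758), with the high mouse below the low mouse in control (6.92 and 7.44) and in stress (6.74 and 7.19). Pax7 (-0.39, -0.92 to 0.13) and Gata2 (-0.33, -0.84 to 0.18) were likewise lower in the high mouse of both treatments. The share of all genes with this pattern was not counted, so it is a description only. Lhx3 differed by -0.14, Tbx19 by 0.01 and Hesx1 by 0.01. With 1 mouse of each class in each treatment, class and individual mouse cannot be told apart.

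A larger difference than either was that between the pools and the single mice, a comparison added after the values were seen. Gata2 was higher in both pools than in all 4 single mice in each of the 3 tissues, the only 1 of the 6 factors to be so, as were 10.4% of all genes. The pool exceeded the mean of the single mice by 1.32 ± 0.19 in pituitary (SE, 2.5-fold, limma adjusted p = 0.00808), 1.15 ± 0.23 in hypothalamus (2.22-fold, adjusted p = 0.0266) and 1.22 ± 0.18 in ovary (2.33-fold, adjusted p = 0.0133). Gata2 was higher in the control pituitary pool (8.23), whose mean of ovary genes was 4.73, than in the stressed pool (7.99), where that mean was 6.86; the part of ovary RNA in these values was not tested.

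Tbx19 was higher in the pituitary pools by 1.22 ± 0.23 (SE, limma adjusted p = 0.0149), and was 0.59 higher in the hypothalamus pools (adjusted p = 0.053) and 0.08 in the ovary pools (adjusted p = 0.878). Pax7 (0.66, adjusted p = 0.059), Pitx1 (0.58, adjusted p = 0.0946) and Lhx3 (0.47, adjusted p = 0.16) leaned the same way in pituitary without passing, and Hesx1 differed by 0.02. In all, 2 of 6 factors were called higher in the pituitary pools, and 1 each in hypothalamus and ovary, where 10.3%, 7.46% and 8.76% of genes were called higher. Both pools were above all single pituitaries for 4 factors (Lhx3, Tbx19, Pax7 and Gata2), as for 24.4% of genes. Other pituitary genes moved with the pools. In the pituitary pools 6.52% of all genes were called lower. Of the 10 hormone and receptor genes 8 were lower there, 1 of them called (Tshb, -1.17, limma adjusted p = 0.018), with Fshb at -0.56 and Pomc at -0.01. The other 2 were higher, Crhr1 by 0.80 with both pools above all single mice and Ghrhr by 0.20. Of these 2, 1 was called. All 5 genes of stem and folliculostellate cells were higher (median 0.76), 1 of them called (Sox9, 0.77, adjusted p = 0.0316). Vim, an intermediate filament gene, and Trh, a hypothalamic hormone gene, were called higher by 1.30 (adjusted p = 0.0162) and 1.68 (adjusted p = 0.0118). Trh is from the list of 11 hypothalamic neuron genes, of which 6 were higher and 5 lower, with 2 called higher and 1 lower. Among the lower ones was Avp (-1.60). The part of all these genes in the Tbx19 and Gata2 values was not tested. Number of mice, ovulation class and any handling of the pooled tissue cannot be told apart.

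**Figure D4:**
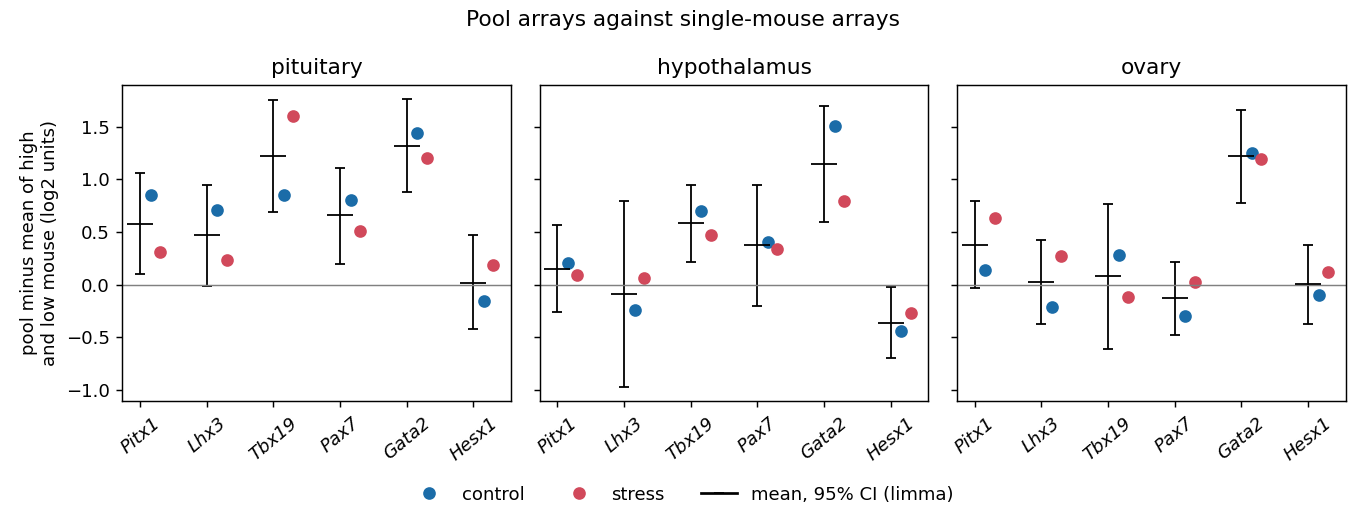
Pool array minus the mean of the high and low mouse, in log2 units, for each factor and tissue: control and stress values as coloured points, and the limma mean with its 95% confidence interval in black. Gata2 lies above 0 in all 3 tissues (1.32, 1.15 and 1.22) and Tbx19 in pituitary (1.22), while Hesx1 in pituitary lies at 0.02.

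Several of these calls were lost with 1 array left out. Where a pool is left out, the lone pool is taken to vary like the single mice. Gata2 had an adjusted p of 0.053 without the control pool in pituitary; 0.255, 0.0909 and 0.0508 without the control pool, the stressed pool and the stressed low mouse in hypothalamus; and 0.185 and 0.142 without the control and the stressed pool in ovary. Tbx19 in pituitary had 0.122 without the stressed pool. The difference of Gata2 stayed between 0.79 and 1.51 in all these omissions. Quantile normalization changed the split of called genes from 2292 higher of 3739 to 1341 of 2886 in pituitary, from 1655 of 2709 to 1179 of 2322 in hypothalamus and from 1943 of 2913 to 1112 of 2089 in ovary. Under it Gata2 still passed in pituitary (1.12, adjusted p = 0.0131), hypothalamus (1.08, 0.0333) and ovary (1.08, 0.0264).

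The ovary pools, in which pituitary hormone genes were high, give a further view of the factors. Prl read 10.82 and 11.44 in the control and stressed ovary pools against 3.63 to 5.09 in the 4 single ovaries, and Gh 10.08 and 10.46 against 5.01 to 5.90. Both hormones were thus far above the single ovaries, by 6.52 ± 0.39 for Prl and 4.87 ± 0.17 for Gh (SE, limma adjusted p = 0.00113 and 0.000179). Pomc (2.06) and Cga (2.05) were also called higher, and of the 10 hormone and receptor genes 4 were. In the same arrays Tbx19 differed from the single ovaries by 0.08 (95% confidence interval -0.61 to 0.77), Lhx3 by 0.03 (-0.37 to 0.42), Pax7 by -0.13 (-0.48 to 0.22), Hesx1 by 0.01 (-0.37 to 0.38) and Pitx1 by 0.38 (-0.03 to 0.79). Both pools were above all 4 single ovaries for 2 of 6 factors, Pitx1 (5.48 and 5.56 against at most 5.39) and Gata2, as for 20.9% of genes. Gata2 was higher by 1.22 (limma adjusted p = 0.0133), as given above. The part of pituitary RNA in these values was not tested.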

How the data were processed

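Total RNA (Trizol, 6 ug, per the labels' protocols) was measured on 18 arrays. The deposited table holds log2 signals, made by the authors in Transcriptome Analysis Console, per the submitters' processing notes; its version, background correction and normalization are not given in the sources used here. It lists 41345 transcript clusters, of which 23521 name 1 gene and 1814 name several and were left out. For a gene with several clusters the one with the highest mean was used, which gave 22180 genes, with no filter on low values. The array's genome build is not named, so gene positions are given only for RefSeq promoter windows.

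Tests were made in limma 3.58.1 (R 4.3.3, lmFit and eBayes, two-sided, Benjamini-Hochberg over 22180 genes, threshold 0.05). Stress was tested on the 6 arrays of a tissue, and tissue differences and interactions on 18 arrays with the mouse or pool as a block. High against low ovulation was tested with treatment as a term. Differences of hypothalamus from ovary and of pools from single mice were added after the values were seen. The number of arrays limits the precision. The fits were checked on simulated data. Figures used matplotlib 3.10.9 under Python 3.11.15.

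Control and stressed arrays share the class names high, low and pool. Within each tissue the deviations of same-class arrays from their group means correlated at 0.359 to 0.727. Those of different classes correlated at -0.521 to 0.321, but deviations within a group cancel out, which lowers these values. The pools had the highest same-class values (0.660 to 0.727). For single mice in pituitary these were 0.366 and 0.359, against 0.321 and 0.313 for high with low. In ovary they were 0.373 and 0.374 against 0.190 and 0.263, and in hypothalamus 0.405 and 0.520 against 0.135 and -0.050. The ranges thus mainly set pools apart from single mice. Any pairing is by label and not by shared animals.

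The factors and all gene lists were chosen with earlier results of these data known. Named genes were the factors, the 3 genes most correlated with each (leaving out predicted and clone names), and genes of each list as described, including those of smallest unadjusted p for stress in pituitary. Alternatives were other scalings, the mean of all clusters of a gene, genes at or above the median level, the block, leaving out the pools and leaving out each array. The lists of melanotropes, stem and folliculostellate cells and pituicytes had median stress differences in pituitary of -0.20 (3 genes), 0.01 (5 genes) and 0.08 (4 genes), and that of hypothalamic neurons -0.08 (11 genes), with 0 genes called by limma.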

Additional observations from a re-analysis of the deposited data

How the results depend on the processing

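Each of the 6 factors remained higher in pituitary than in hypothalamus and ovary under every alternative in which it was recomputed. The limma adjusted p stayed under 0.05 except for Gata2 against ovary with no block for the mouse or pool (adjusted p = 0.0603). In each comparison 106 factor values were recomputed, and not every factor entered every alternative. The mean of all clusters left the factors' own signals unchanged, as each has 1 cluster. With 1 array left out, the counts of called genes ran from 8679 to 9275 against hypothalamus, from 8940 to 9512 against ovary and from 10393 to 10900 for hypothalamus against ovary. With no block they were 7350, 7657 and 9266. For pools against single mice those counts ran from 804 (without the stressed pool) to 4779 in pituitary, from 92 (without the stressed pool) to 3228 in hypothalamus and from 44 (without the control pool) to 2888 in ovary; they were 1178, 152 and 61 without the other pool. Without the low mouse they were 2436 (control) and 2095 (stressed) in pituitary and 1515 (stressed) in hypothalamus. Stress and high against low ovulation stayed at 0 called genes under every alternative, including the class as replicate block, under which the adjusted p of the factors in pituitary ran from 0.856 to 0.961. This class block changed no call.

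Signs of differences near 0 turned. Without the pools the stress difference was -0.01 for Hesx1 in hypothalamus, and 0.10 for Tbx19, -0.10 for Pax7 and -0.04 for Hesx1 in ovary. Quantile normalization gave -0.01 for Pax7 in ovary and -0.04 for Hesx1 in high minus low. Median centring gave -0.02 for Tbx19 and -0.03 for Hesx1 in high minus low, and 0.03 for Lhx3 in hypothalamus minus ovary. Median centring also brought Pax7 in the pituitary pools (adjusted p = 0.0412) and Tbx19 in the hypothalamus pools (0.0365) under the threshold.

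Leaving out 1 array turned further signs. The stress differences then ran from -0.35 to 0.01 for Lhx3, -0.79 to 0.03 for Tbx19 and -0.49 to 0.39 for Gata2 in pituitary. In hypothalamus they ran from -0.52 to 0.19 for Lhx3, -0.29 to 0.22 for Pax7, -0.30 to 0.63 for Gata2 and -0.11 to 0.21 for Hesx1. In ovary they ran from -0.38 to 0.27 for Tbx19, -0.09 to 0.09 for Pax7, -0.62 to 0.20 for Gata2 and -0.13 to 0.23 for Hesx1. Hypothalamus minus ovary ran from -0.16 to 0.14 for Lhx3 and -0.06 to 0.06 for Hesx1. High minus low ran from -0.39 to 0.11 for Lhx3, -0.23 to 0.26 for Tbx19 and -0.13 to 0.14 for Hesx1. Pool minus single mice ran from -0.15 to 0.19 for Hesx1 in pituitary and -0.50 to 0.32 for Lhx3 in hypothalamus. In ovary it ran from -0.21 to 0.27 for Lhx3, -0.24 to 0.40 for Tbx19, -0.30 to 0.03 for Pax7 and -0.10 to 0.12 for Hesx1. The cause of these changes was not tested. The array number and the unknown signal of an unexpressed gene limit what can be said of low signals.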
